A study of Mus musculus with 32 samples.

Results

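The comparison described here is of mouse embryonic stem cells after 24 h of RAD21 degradation with the same cells at 0 h. Its members were all genes of the authors' RAD21 table with a mean normalised count of at least 10 over the table's 6 libraries. These were 13738 of the 14277 genes listed there, and the 5 tables of the series list 17440 distinct genes. The series holds 32 RNA sequencing libraries of E14, an established mouse embryonic stem cell line. The 6 libraries used were from cells of the RAD21 AID genotype, 2 each at 0, 12 and 24 h of treatment with the auxin analogue 5-Ph-IAA at 1 uM. The treatment field of the labels says only IAA, while the treatment protocol gives 5-Ph-IAA for these cells. All 3 groups were grown without serum on gelatin, with the cytokine LIF, the MEK inhibitor PD0325901 and the GSK3 inhibitor CHIR99021. No RAD21 AID library kept without the agent for 24 h and no untagged cells given 5-Ph-IAA were analysed here, so loss of RAD21, exposure to the agent and time in culture cannot be told apart. The labels do not say whether the line was 1 clone or whether the 2 libraries of a group came from separate cultures, so the p-values measure the spread between these libraries, which may be technical.

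RAD21 is the kleisin subunit of cohesin, the ring-shaped complex that holds sister chromatids together until mitosis and that extrudes chromatin into loops in interphase. Loops grow until cohesin meets CTCF bound at convergent sites, which gives rise to topologically associating domains. In an auxin-inducible degron line the tagged protein is marked for destruction by the proteasome when an auxin is added, while its mRNA is still made.

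The Rad21 mRNA, from chr15:51962240-51991747 of GRCm38 on the minus strand, was listed at 4417 and 4259 at 0 h and at 4255 and 4131 normalised counts at 24 h. Its log2 difference was -0.05 (limma adjusted p = 0.428), which says nothing about the protein. Of 18 genes for cohesin subunits, loaders and regulators and for Ctcf, 1 passed the test: Stag1, an alternative SA subunit of the complex, rose from 3453 and 3344 to 4381 and 4071 (log2 0.31, SE 0.05, adjusted p = 0.00826). Library totals lay between 17700427 and 18023866 normalised counts, and replicates correlated with r from 0.985 to 0.986 across genes. The 10 defining markers of embryonic stem cells summed to between 99458 and 100971 at 0 h and between 98046 and 98653 at 24 h. Of 10 fibroblast markers 4 were listed, with sums of at most 214 at 0 h and 243 at 24 h, and Col1a2, Col3a1, Dcn, Lum, Postn and Twist2 were not in the table. The 15 mitochondrially encoded genes held 2.00% and 2.02% of the values at 0 h, 1.15% in both 12 h libraries and 1.70% and 1.75% at 24 h.

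At 24 h, 1883 of 13738 genes (13.7%) differed from 0 h in limma at a Benjamini-Hochberg adjusted p below 0.05. Of these, 899 (6.54% of genes tested) were higher and 984 (7.16%) lower. Most differences were small: the median size among called genes was 0.36 on the log2(normalised count + 1) scale, and 1309 called genes (69.5%) differed by less than 0.5. A difference of at least 2-fold was found for 146 genes (1.06%), of which 63 (0.459%) were higher and 83 (0.604%) lower. With 2 libraries a group, separation of the libraries alone was common: in 29.1% of genes both 24 h libraries were above both 0 h libraries and in 29.6% below them, and 4089 genes (29.8%) had an unadjusted p below 0.05. Without either 0 h library the calls numbered 818 and 687, and without either 24 h library 885 and 817. With a variance model that takes no account of a gene's level, 216 genes were called.

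How small a difference could be called depended on the level. Among 3588 genes with a mean of 10 to 100, 116 (3.23%) were called, and the smallest called difference was 0.70. Among 6048 genes between 100 and 1000, 641 (10.6%) were called, from 0.23 upwards. Among 4102 genes above 1000, 1126 (27.4%) were called, from 0.05 upwards. The median standard error over all genes was 0.12, and it was 0.38 in the lowest of these ranges and 0.06 in the highest. A change smaller than these limits was not detectable in a weakly expressed gene.

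**Figure D1:**
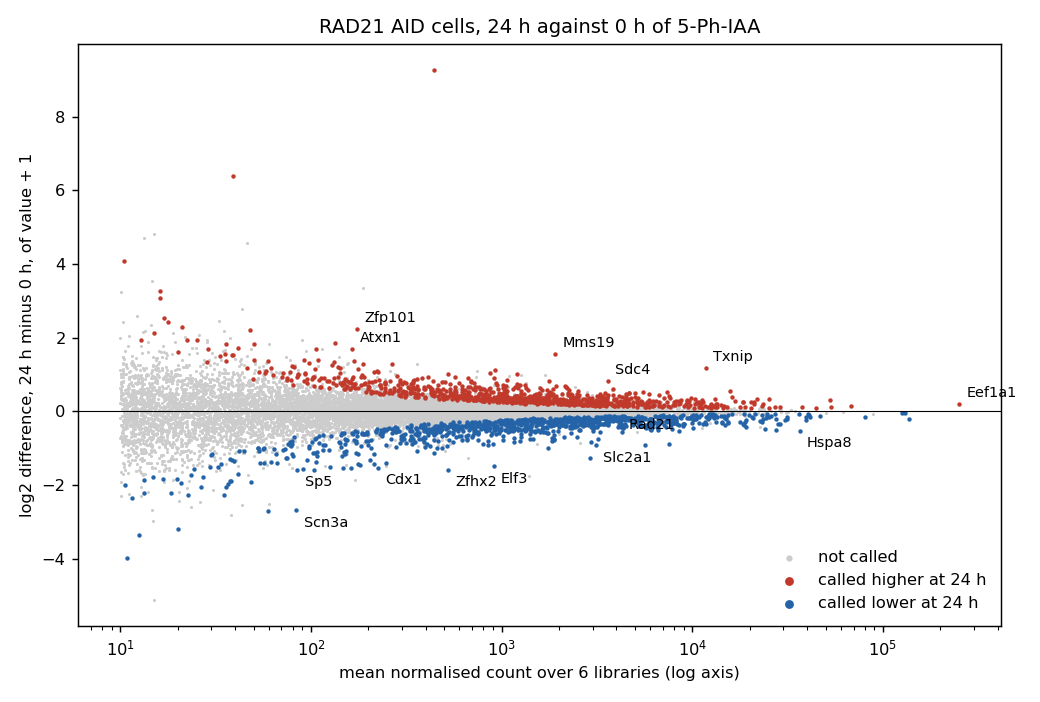
Difference between 24 h and 0 h for each of the 13738 genes tested. The x axis (log scale) gives the mean normalised count over 6 libraries, the y axis the log2 difference of normalised count + 1, grey points are genes not called, coloured points the 899 called higher and 984 called lower. Called differences narrow as the level rises, and most differences of 2-fold or more are at low levels. The 3 highest coloured points are genes listed at 0 in both 0 h libraries, whose fitted difference depends on the pseudocount.

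Among genes that rose, with a mean of at least 100 in one group, libraries that did not overlap and no provisional symbol, the largest fitted differences were in Zfp101, Lrrc61, Ptpru, Atxn1, Mms19, Emilin3, Dusp4, Trf, Rpain, Cyp39a1, Grhl2 and Ppp1r13l. Zfp101, a zinc finger gene at chr17:33360507-33394641 on the minus strand, stood at 84.9 and 66.4 at 0 h and at 499.9 and 252 at 24 h (log2 2.23, SE 0.32, adjusted p = 0.00741). Both 24 h libraries lay above both 0 h libraries, as the naming rule required, but the first was far above the second. Its 12 h values, 76.5 and 62.5, were close to those of 0 h. Mms19, which serves cytosolic iron-sulfur protein assembly, was at 1117 and 1116 at 0 h and at 5074 and 2099 at 24 h (log2 1.55, SE 0.34, adjusted p = 0.0299). Lrrc61, which encodes a leucine-rich repeat protein, went from 49.2 and 89.6 to 318 and 188 (log2 1.87). Here too the 2 libraries at 24 h were far apart.

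More even between replicates was Dusp4, a phosphatase that inactivates ERK, with 48.1 and 39.3 at 0 h and 110.2 and 122 at 24 h (log2 1.39, SE 0.19, adjusted p = 0.00622). It had already reached 114 and 115 at 12 h. Atxn1, which encodes the transcriptional regulator ataxin 1 in chr13:45549755-45965008, rose from 95.3 and 88.7 to 246 and 356 (log2 1.68, SE 0.20, adjusted p = 0.00351). Grhl2, a transcription factor of epithelia, rose from 123 and 91.7 to 279.7 and 244 (log2 1.29). Trf, the iron carrier transferrin, rose from 59.6 and 98.3 to 169.8 and 234 (log2 1.37), and Emilin3, an extracellular matrix glycoprotein, from 59.5 and 50.4 to 154.5 and 138 (log2 1.40). That none of these groups of 2 overlapped follows from the naming rule. Ptpru, a receptor tyrosine phosphatase, went from 47.0 and 49.5 to 121 and 202 (log2 1.68), and Ppp1r13l, an inhibitor of p53, from 129.8 and 286 to 496 and 449.7 (log2 1.29, adjusted p = 0.0462). The other members, Cyp39a1, an oxysterol hydroxylase, and Rpain, an interaction partner of the single-strand binding protein RPA, had log2 differences of 1.32 and 1.33. The calls of Mms19, Lrrc61, Ptpru, Trf, Rpain, Cyp39a1 and Ppp1r13l were each lost on leaving out at least 1 of the 6 libraries, Mms19 and Ppp1r13l also without either 12 h library. Without the first 24 h library the log2 difference of Mms19 was 0.91, and without the first 0 h library that of Ppp1r13l was 0.72. Exons of Lrrc61, Atxn1, Mms19 and Grhl2 overlap a gene on the other strand and those of Trf one on the same strand; whether the counting used strand is not given in the sources used here, so these values are uncertain.

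Within the same limits, the largest falls were in Scn3a, Gnal, Sp5, Zfhx2, Prrt3, Col9a2, Cdx1, Igfbp4, Elf3, Mafa, Nphs1 and Ier3. Several were steady in both libraries of a group. Elf3, an ETS transcription factor of epithelia at chr1:135253575-135258568 on the minus strand, fell from 1499.9 and 1477 through 735 and 689.9 at 12 h to 524 and 527 (log2 -1.50, SE 0.07, adjusted p = 0.000112). Zfhx2, a zinc finger homeobox factor at chr14:55060262-55092324 on the minus strand, fell from 873 and 829 through 413 and 456 to 295 and 269 (log2 -1.59, SE 0.10, adjusted p = 0.000397). In both genes the 3 time points were in descending order with no overlap of libraries. Cdx1, a caudal homeobox factor of the posterior embryo, was at 381 and 414 at 0 h and at 124 and 149.6 at 24 h (log2 -1.54, SE 0.17, adjusted p = 0.00278), and its 12 h values of 159 and 122 spanned those of 24 h.

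Gnal, a G protein alpha subunit of the olfactory system, fell from 156 and 159 to 51.5 and 50.8 (log2 -1.60). Igfbp4, which binds insulin-like growth factors, fell from 273 and 291 to 111 and 84.2 (log2 -1.53), and Col9a2, a collagen chain of cartilage, from 238 and 196 to 76.9 and 70.2 (log2 -1.54). In each of these the 24 h values were below every 0 h value, as the naming rule required. Mafa, a beta cell transcription factor, fell from 255 and 268 to 110.2 and 79.1 (log2 -1.47), and Nphs1, the slit diaphragm protein nephrin, from 354 and 335 to 116 and 137 (log2 -1.45). Prrt3, which encodes a proline-rich transmembrane protein, fell from 123 and 113 to 28.1 and 54.1 (log2 -1.57). The call of Scn3a, a sodium channel, rested on its 0 h libraries, which held 61.5 and 343 beside 21.6 and 21.7 at 24 h, and its call was lost on leaving out any library but the first 0 h one (adjusted p = 0.0894 and log2 -1.47 without the second). Calls of Sp5, Prrt3 and Nphs1 were likewise lost when 1 library was left out, and exons of Gnal, Zfhx2, Elf3 and Nphs1 overlap those of opposite-strand genes.

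**Figure D2:**
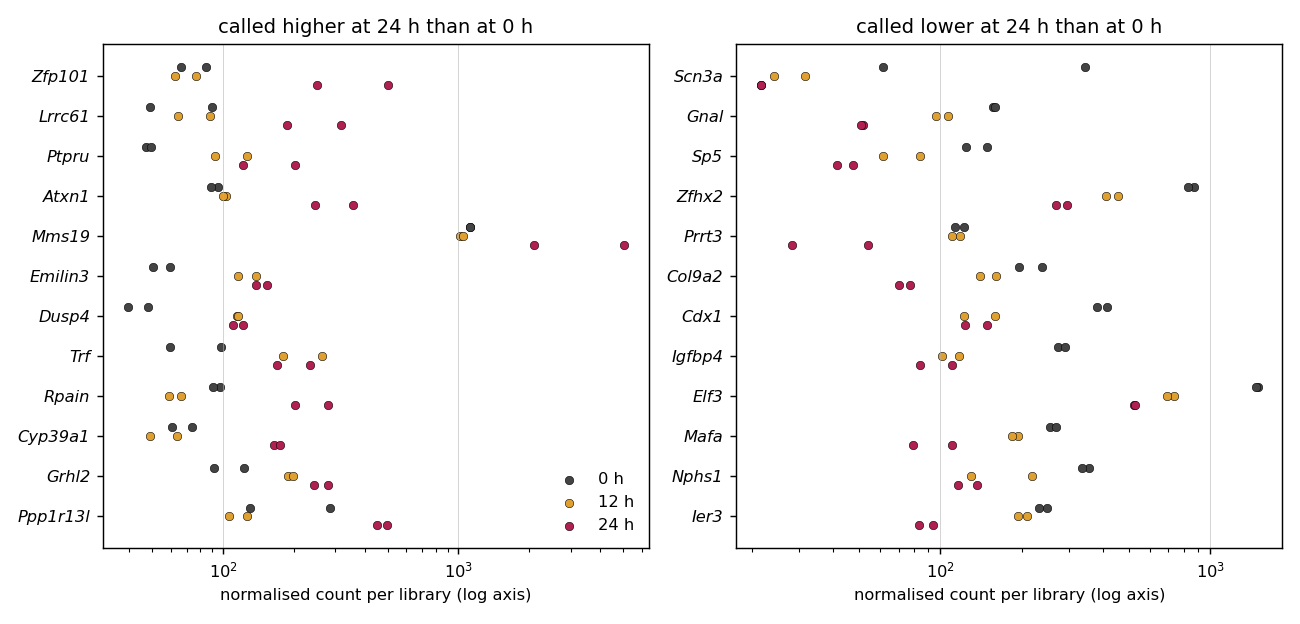
Normalised count (x axis, log scale) in each library of the 12 genes with the largest rises (left) and the 12 with the largest falls (right), both within the naming limits, with grey, yellow and red points for the 2 libraries at 0, 12 and 24 h and no error bars. The 24 h points of Elf3 lie together below all earlier ones, those of Zfp101 and Mms19 are spread apart, and the 0 h points of Scn3a are the widest pair on the right.

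Among genes with a mean of at least 1000, the smallest adjusted p belonged to Txnip, which encodes a thioredoxin-binding protein that lowers glucose uptake and lies at chr3:96557957-96561883 on the plus strand. It rose from 7161 and 7332 at 0 h through 11683 and 11676 at 12 h to 16413 and 16268 at 24 h, a 2.25-fold change (log2 1.17, SE 0.02, adjusted p = 3.22e-06). Sdc4, a heparan sulfate proteoglycan of focal adhesions, rose from 2694 and 2712 through 3339.6 and 3426 to 4811 and 4717 (log2 0.82, SE 0.04, adjusted p = 0.000112). Spp1, the secreted protein osteopontin, went from 12822 and 13050.3 to 18998 and 18950.2 (log2 0.55). All 3 rose at each step, with no overlap between time points.

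Ash2l, a subunit of histone H3 lysine methyltransferase complexes, rose from 14422 and 14304 to 18716 and 18829 (log2 0.39, SE 0.02, adjusted p = 0.00012), and Fn1, fibronectin, from 46194 and 46727 to 56749.7 and 57905 (log2 0.30). Eef1a1, a translation elongation factor and one of the most abundant mRNAs, rose from 234320.0 and 235748 to 266796 and 268182 (log2 0.19, SE 0.01, adjusted p = 3.67e-05). Quantile normalisation gives a gene that keeps its rank the same value in every library, and the difference was 0 under that setting. Of those that fell, Hspa8, the constitutive cytosolic HSP70 chaperone at chr9:40800984-40810087, dropped from 45518 and 45216 to 30802 and 31674 (log2 -0.54, SE 0.02, adjusted p = 3.42e-05), with most of the change present at 12 h (32785 and 33322). Slc2a1, the GLUT1 glucose transporter at chr4:119108711-119137983, fell from 3903 and 3959 to 2084 and 2051 (log2 -0.93, SE 0.04, adjusted p = 9.66e-05). Actg1, cytoplasmic gamma actin, fell by 0.34 and Eif4a1, a translation initiation helicase, by 0.35 on the log2 scale. Txnip and Slc2a1 have exons that overlap those of opposite-strand genes.

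The gene lists described from here on are to be read beside all genes tested, of which 6.54% were called higher and 7.16% lower. Among genes with a mean above 1000, 27.4% were called in either direction. Genes of S phase and DNA replication were lower at 24 h. Of 23 tested, 16 fell and 0 rose in limma (19 and 0 at an unadjusted p below 0.05), and all 23 had negative differences, with a median of -0.24 beside 0.00 over all genes. These mRNAs build the replicative helicase and the nucleotide supply and are driven by E2F factors as cells enter S phase. In bulk RNA, fewer cells in that phase and less of these mRNAs per cell cannot be told apart. Mcm5, a subunit of the MCM helicase at chr8:75109569-75128439, was at 10463 and 10094 at 0 h, 11367 and 11244 at 12 h, and 8430.1 and 8182 at 24 h (24 h against 0 h: log2 -0.31, SE 0.03, adjusted p = 0.00129). It lay lowest in the 24 h libraries and highest in the 12 h ones. The other subunits Mcm4 and Mcm7 each fell by 0.33, Mcm3 by 0.22 and Mcm2 by 0.19, while Mcm6 (log2 -0.06) did not pass the test.

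Larger falls were found for regulators of replication onset. Cdc6, which loads the helicase onto origins, fell from 1545 and 1496 to 1050.3 and 1040.1 (log2 -0.54, SE 0.06, adjusted p = 0.00198). Ccne2, a cyclin of the G1 to S transition, fell from 447 and 409.7 to 280.4 and 234 (log2 -0.74), Ccne1 by 0.35 and the transcription factor E2f1 from 1003 and 925 to 735 and 715 (log2 -0.41). The clamp Pcna fell from 5447 and 5720.1 to 4622 and 4498 (log2 -0.29). In each of these genes both 24 h libraries were below both 0 h libraries, as they were in 29.6% of all genes tested. Of 24 genes of G2 and mitosis, 1 rose (Nusap1, log2 0.18) and 1 fell (Mki67, log2 -0.19), with a median of -0.03. Here 0 rises were called with any 1 library left out, and 0 falls without either 0 h library or the second 24 h library. Of 17 DNA repair and checkpoint genes 1 rose, the checkpoint mediator Mdc1 (0.35), and 2 fell, among them Brca2 (-0.23), with 0 falls called without either 0 h or either 24 h library. Calls among the S phase genes numbered 10 without the first 0 h library and 1 with the variance model that ignores the level.

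E2F factors bind sites of the form TTTCCCGC or TTTGGCGC, and these letters were looked for on both strands of the 250 bases before each RefSeq gene start on GRCm38.p6, for 10340 of the 13738 genes. A match was present in 2.66% of all promoters, in 2.16% of those of genes that rose and in 5.56% of those of genes that fell. Among S phase genes with a promoter, 5 of 18 tested and 3 of 13 that fell held one. The Mcm5 window, chr8:75109259-75109508 on the plus strand, is shown because its gene carries 1 match, in capitals, starting 149 bases before the annotated start and read on the opposite strand. A match describes the letters only.
Mcm5: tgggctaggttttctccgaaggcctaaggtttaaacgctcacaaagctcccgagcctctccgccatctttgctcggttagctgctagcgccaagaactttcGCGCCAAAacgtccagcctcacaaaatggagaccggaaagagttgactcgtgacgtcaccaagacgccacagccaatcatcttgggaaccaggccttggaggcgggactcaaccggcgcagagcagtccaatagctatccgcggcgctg

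Glycolytic enzymes, glucose and lactate carriers and other hypoxia-inducible genes were also mostly lower. Of 30 tested, 17 fell and 2 rose, and 26 were negative, with a median of -0.23. Under low oxygen, or when the prolyl hydroxylases are blocked, HIF factors bind ACGTG cores and raise these genes. The largest fall was in Egln3, one of those hydroxylases and itself a HIF target, at chr12:54178981-54203860, from 287 and 307 at 0 h through 201 and 193 at 12 h to 129 and 109 at 24 h (log2 -1.32, SE 0.14, adjusted p = 0.00211). The sister hydroxylase Egln1 was at 1501 and 1436 at 0 h and at 796 and 893 at 24 h (log2 -0.80). Bnip3, a mitophagy receptor at chr7:138890836-138909519, fell from 2289 and 2228 to 1325 and 1301 (log2 -0.78, SE 0.05, adjusted p = 0.000458). In all 3 the 24 h libraries were below both earlier pairs.

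Vegfa, the endothelial growth factor, fell from 1875 and 1920.3 to 1176 and 1063 (log2 -0.76) and had reached 1137 and 1248 by 12 h. Slc16a3, a lactate exporter, was at 1554 and 1624 at 0 h, higher at 12 h (2074 and 2123) and lower at 24 h (1140.1 and 997, log2 -0.57). The enzymes moved less. Pgam1, at chr19:41911923-41918660, fell from 15478 and 16015 to 12193 and 12154 (log2 -0.37, adjusted p = 0.000385), Ldha from 14806 and 14678 to 11850.0 and 11876 (log2 -0.31) and Eno1 from 17870.1 and 17587 to 14494 and 14381 (log2 -0.30). All 3 were above their 0 h level at 12 h. Tpi1, Hk2, Pkm and Aldoa fell by 0.28, 0.27, 0.16 and 0.07, while Gapdh (log2 -0.07) and Pgk1 (0.00) did not pass, and Hk1 (0.12) and the collagen hydroxylase P4ha1 (0.20) rose. Falls numbered 13 to 16 and rises 0 when any 1 library was left out, and falls 5 with the variance model that ignores the level.

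An ACGTG core was present, on either strand, in 22.1% of all 10340 promoters, 24.5% of those of genes that rose and 25.3% of those of genes that fell. It was present in 12 of 26 promoters of the glycolysis and hypoxia list and in 8 of 15 (53.3%) of its members that fell. The windows of 3 members are shown to place the core, in capitals, in genes that fell strongly, moderately and slightly. They are chr12:54203875-54204124 on the minus strand for Egln3, chr7:138909507-138909756 on the minus strand for Bnip3 and chr19:41911621-41911870 on the plus strand for Pgam1. The Bnip3 core reads as CACGTG, which holds ACGTG on both strands. That longer motif was in 8.64% of all promoters in 10.5% of those of genes that rose and in 10.6% of those of genes that fell.
Egln3: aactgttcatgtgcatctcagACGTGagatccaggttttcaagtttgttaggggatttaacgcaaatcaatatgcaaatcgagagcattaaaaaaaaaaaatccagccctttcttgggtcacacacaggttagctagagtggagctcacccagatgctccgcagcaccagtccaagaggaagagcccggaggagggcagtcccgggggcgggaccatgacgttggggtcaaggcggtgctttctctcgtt
Bnip3: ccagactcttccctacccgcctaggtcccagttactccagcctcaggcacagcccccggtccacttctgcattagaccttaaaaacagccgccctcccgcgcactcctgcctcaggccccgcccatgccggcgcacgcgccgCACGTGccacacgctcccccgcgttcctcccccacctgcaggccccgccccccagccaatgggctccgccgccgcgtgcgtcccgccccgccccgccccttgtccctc
Pgam1: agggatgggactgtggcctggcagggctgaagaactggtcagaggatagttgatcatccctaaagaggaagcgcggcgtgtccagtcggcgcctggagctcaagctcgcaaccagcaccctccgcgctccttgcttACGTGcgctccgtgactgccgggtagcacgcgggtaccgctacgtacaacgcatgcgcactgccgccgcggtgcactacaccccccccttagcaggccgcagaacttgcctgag

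**Figure D3:**
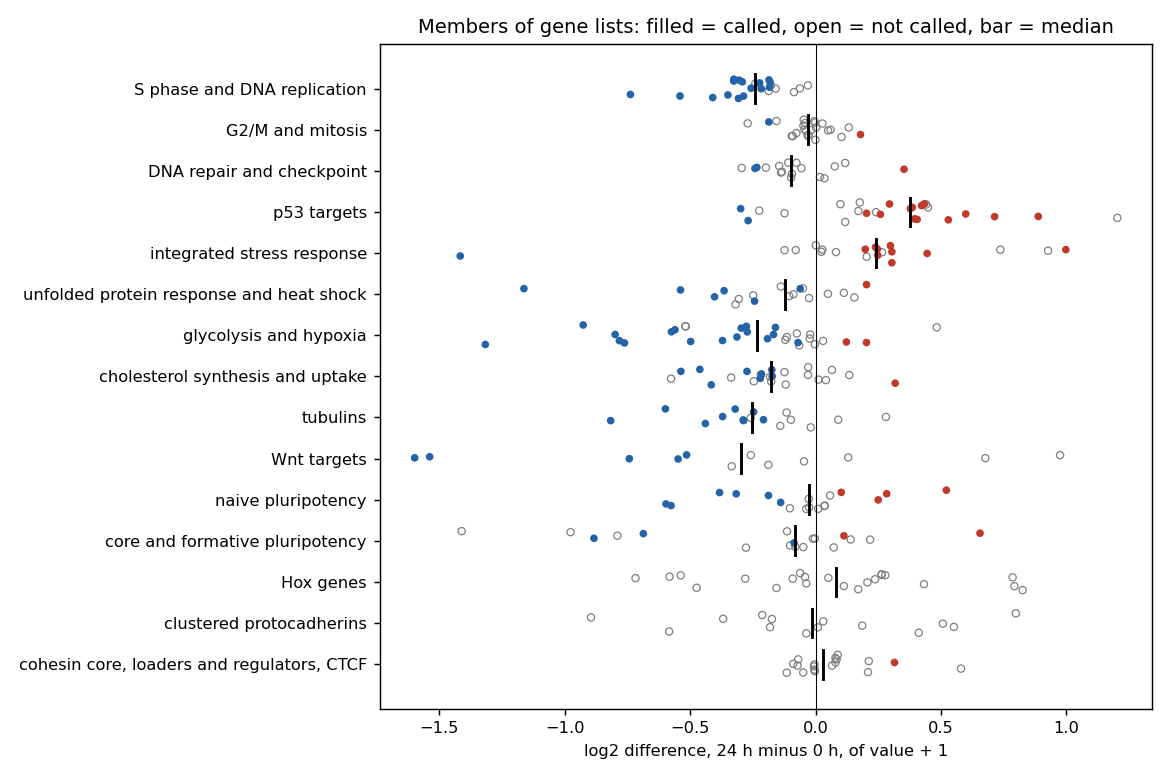
Log2 difference between 24 h and 0 h (x axis, log2(normalised count + 1) scale) for the members of 15 gene lists, 1 point a gene, filled where called and open where not, with a bar at the list's median. The bars of the S phase, glycolysis and hypoxia, and tubulin lists lie below 0 and those of the p53 and integrated stress response lists above it.

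Tubulins, the subunits of microtubules, also fell: 9 of 16 were lower and 0 higher in limma (10 and 0 at an unadjusted p below 0.05), with a median of -0.25. Tubb2a fell from 1074 and 1091 through 836 and 828 to 626 and 602 (log2 -0.82, SE 0.06, adjusted p = 0.000871). Tuba1a fell from 2548 and 2707 to 1782 and 1686 (log2 -0.60), and Tuba1b, the most abundant of them, from 21174 and 20685 to 15495 and 15368 (log2 -0.44). Both 24 h libraries were the lowest in all 3 genes. Tubb4b was at 6999 and 7077 at 0 h, 9372 and 9080.4 at 12 h and 5782 and 5744 at 24 h (log2 -0.29). The alpha tubulin genes are near-identical in their coding sequences, so how reads were shared among them is uncertain. With the variance model that ignores the level, 3 tubulins were called lower.

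Targets of p53, the transcription factor that halts the cell cycle or starts cell death after damage, were mostly higher at 24 h, though some fell. Of 25 tested, 13 rose and 2 fell in limma (20 and 2 at an unadjusted p below 0.05). The median was 0.38, and 21 of the 25 differences were positive. Ccng1, a cyclin induced by p53, rose from 6554 and 6449.9 to 8667 and 8557 (log2 0.41, adjusted p = 0.000411). Tnfrsf10b, a TRAIL death receptor, rose from 754 and 760.1 to 1218 and 1269 (log2 0.71), and Ephx1, an epoxide hydrolase, from 502 and 471 to 954 and 852 (log2 0.89). In these 3 genes both 24 h libraries were above both 0 h libraries, as they were in 29.1% of all genes tested. Plk2, a polo-like kinase, rose from 589.9 and 605 to 892 and 919.8 (log2 0.60), and Trp53inp1 by a log2 difference of 0.38. The members that fell were Cdkn1a, the cell cycle inhibitor p21, from 4161 and 3967 to 3213 and 3395 (log2 -0.30, adjusted p = 0.00749), and Bax, an apoptosis effector (log2 -0.27, adjusted p = 0.0223). Mdm2, the ubiquitin ligase of p53, had a log2 difference of 0.18 (adjusted p = 0.0537). The count of rises was 8 without either 0 h library or either 24 h library, and 2 with the variance model that ignores the level.

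Of 20 genes of the integrated stress response, in which amino acid shortage or other stress raises ATF4 translation, 9 rose and 1 fell, with a median of 0.24. Ddit3, the transcription factor CHOP, rose from 355 and 339 through 527 and 518 to 655 and 735 (log2 1.00, SE 0.09, adjusted p = 0.00129). Nupr1, a stress-induced chromatin protein, rose from 2121 and 2087 to 2774 and 2959 (log2 0.45), and Asns, asparagine synthetase, from 17735 and 17743 to 20688 and 21192 (log2 0.24). For Nupr1 and Asns the 12 h libraries were below both 0 h libraries. Slc7a5 and Slc3a2, which together form a large neutral amino acid transporter, each rose by a log2 difference of 0.30. The member that fell was Cebpb, a CCAAT binding factor, from 68.6 and 76.4 to 22.1 and 31.7 (log2 -1.42, adjusted p = 0.0289), and Atf4 itself had a log2 difference of -0.08 and was not called. With the variance model that ignores the level, 1 rise and 0 falls were called. The list's median was 0.23 to 0.26 with any 1 library left out, but the call of Cebpb was lost without either 0 h or either 24 h library.

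Among 18 genes of the unfolded protein response and heat shock, 1 rose and 6 fell, with a median of -0.12. Over all genes tested 6.54% were called higher and 7.16% lower, and 27.4% were called among those with a mean above 1000. Besides Hspa8, Hspb1, a small heat shock protein, fell from 7146 and 7414 to 5657 and 5648 (log2 -0.36), and Hspa5, the endoplasmic reticulum chaperone BiP, from 5656 and 5658 to 4833 and 4726 (log2 -0.24). Hspb1 and Hspa5 were both above 0 h at 12 h. Hyou1, another chaperone of the endoplasmic reticulum, was the member that rose (log2 0.20). With the 4 libraries of 0 h and 24 h alone, 0 rises were called. The call of Hyou1 was also lost without either 0 h library, either 12 h library or the first 24 h library. The number of falls was 3 or 4 with any 1 library left out, and 1 with the variance model that ignores the level.

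Genes of cholesterol synthesis and uptake, which SREBP2 raises when sterols are low, had 8 falls and 1 rise among 23, with a median of -0.18. Calls in either direction made up 13.7% of all genes tested and 27.4% of those with a mean above 1000. Idi1, an isomerase of the pathway, fell from 3411 and 3359 to 2443 and 2635 (log2 -0.42), and Mvd, a decarboxylase, from 1211 and 1260.3 to 799.8 and 906 (log2 -0.54). Every 24 h value of both genes was below every 0 h value, which held for 29.6% of all genes tested. Hmgcs1, a synthase early in the pathway, fell by 0.22. Dhcr7, the reductase that makes cholesterol from its last precursor, rose by a log2 difference of 0.32, but 0 rises were called with the variance model that ignores the level. Its call was also lost on leaving out either 0 h or either 24 h library. The falls numbered 4 without the second 0 h library, 5 without the first or without either 24 h library, and 0 with the variance model that ignores the level.

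Wnt targets, which the GSK3 inhibitor in the medium of all groups activates, had 5 falls and 0 rises among 12 in limma (also 5 and 0 at an unadjusted p below 0.05), with a median of -0.30. Sp5, a Wnt-induced zinc finger factor, fell from 125 and 149.5 through 84.3 and 61.5 to 47.4 and 41.6 (log2 -1.60, SE 0.23, adjusted p = 0.00739). Axin2, a feedback inhibitor, was at 541 and 545 at 0 h and had reached 343 and 380.5 at 12 h, beside 361 and 399.8 at 24 h (log2 -0.51). Ccnd1, cyclin D1, was unlike it: 3317 and 3335 at 0 h and 3527 and 3406 at 12 h, then 2318 and 2231 at 24 h (log2 -0.55, adjusted p = 0.00071). Notum, a secreted Wnt deacylase, fell by 0.74, and Cdx1 is described above. Tcf7 (log2 -0.05), Lef1 (-0.26) and Nkd1 (0.68) did not pass the test. The number of falls was 2 without the second 0 h library, and also 2 with the variance model that ignores the level.

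Immediate early genes and targets of ERK, a kinase downstream of the MEK that the medium inhibits, had 3 rises and 3 falls among 16. Besides Dusp4, Klf6 (log2 0.42) and Etv5 (0.29) rose. Ier3, which regulates survival, was at 249.5 and 233 at 0 h and fell to 94.1 and 83.4 (log2 -1.43), and Ier2 (-0.58) and Srf (-0.37) also fell. Dusp6, at 101 and 57.3 and then 88.9 and 78.9, did not pass the test.

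Pluripotency factors were called in both directions, as were all genes tested (6.54% higher and 7.16% lower). Of genes with a mean above 1000, 27.4% were called. Of 18 naive genes 4 rose and 6 fell, with a median of -0.03. Without the second 0 h or the second 24 h library, 0 rises and 3 falls were called, and without the first 0 h or the first 24 h library 2 rises. Pou5f1, which encodes OCT4, went from 16638 and 16339.5 to 15474 and 15598 (log2 -0.09, adjusted p = 0.0318), and Nanog from 15528 and 15576 to 14218 and 14028 (log2 -0.14, adjusted p = 0.00571). Sox2 (log2 -0.01, adjusted p = 0.841) and Esrrb (0.04) did not pass the test. Larger changes were a fall of Tet2, a 5-methylcytosine oxidase, from 2170.1 and 2097 to 1387 and 1434 (log2 -0.60), and of Nr0b1, the nuclear receptor DAX1, from 596 and 601 to 391 and 412 (log2 -0.58). Dppa3, which protects maternal methylation, rose from 236 and 222 to 322 and 337 (log2 0.52) after 170.1 and 175 at 12 h. Among 18 core and formative genes 2 rose and 3 fell, but 0 rises and 1 or 2 falls were called with any 1 library left out. Dppa2, a chromatin factor, fell from 1089 and 1031 to 569.6 and 578 (log2 -0.88), with 1019.6 and 1129 at 12 h, and Zic2 fell by 0.69.

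Lineage genes were called in both directions, as were all genes tested (6.54% higher and 7.16% lower). In the trophoblast list of 11, the keratin Krt18 rose from 122 and 118 to 231 and 227 (log2 0.93), and the transcription factors Tfap2c (647 and 728 to 383 and 330.5, log2 -0.95) and Ets2 (-0.45) fell. In the primitive endoderm list of 13, Lama1, a laminin chain, rose from 1853 and 1981 to 2898 and 2818 (log2 0.58) and Sparc by a log2 difference of 0.27. Of 10 neural genes Ncam1 rose (0.43) and Sox1 fell (-0.75), and of 4 mesoderm genes Cdx1 and Eomes (-0.61) fell. Without either 0 h or either 24 h library, 1 endoderm rise, 1 mesoderm fall and 0 neural falls were called, and 0 neural rises without the second 0 h or either 24 h library. The sums of the defining markers moved beside these. For primitive endoderm they were 111 to 124 at 0 h and 155 to 175 at 24 h over 5 markers, with Amn, Cubn, Foxa2 and Sox7 not in the table. For trophoblast they were 269.5 to 342 and 172 to 210 over 2 markers, with Cdx2, Elf5, Gata3, Hand1 and Plac1 not in the table. For neural cells they were 214 to 244 and 156 to 186 over 4 markers, with Dcx, Neurog1 and Olig2 not in the table. No listed marker was at 0 in all libraries, and the part of these sums in the other results was not tested.

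The median gene span was 34.1 kb for genes that rose and 15.3 kb for genes that fell, beside 21.9 kb over all 13729 genes joined to GENCODE, a description without a test. Their median levels were 1275 and 1489 normalised counts, beside 416 over all genes tested. Genes that fell at least 2-fold had a low median level of 65.9 and a median span of 10.6 kb. Of them 9.64% were annotated as pseudogenes, against 3.39% of all genes tested. For genes that rose at least 2-fold these values were 77.6, 34.1 kb and 3.17%. Adjacent called genes were also compared by distance, leaving out pairs whose annotated exons overlap. Of 123 neighbouring pairs of called genes with start sites under 50 kb apart, 88 (71.5%) moved in the same direction, against 73 of 127 (57.5%) at 50 to 500 kb and 13 of 26 (50%) beyond that. Over all adjacent pairs without such overlap, called or not, the share with the same sign was 53.6%, 52.5% and 51.9%. Neighbours of similar sequence were not left out, and their part in these shares was not tested. The GGNGGCAG letters of the CTCF core motif were in 11.5% of all promoter windows, 11.8% of those of genes that rose and 11.0% of those of genes that fell.

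The 12 h libraries show when each list moved, but 12 h and 24 h were compared with the same 0 h libraries and with each other, so these counts are not independent. Between 12 h and 24 h 2189 genes (15.9%) differed, 1054 (7.67%) higher and 1135 (8.26%) lower at 24 h. Between 0 h and 12 h 1787 genes (13%) differed, 915 (6.66%) higher and 872 (6.35%) lower at 12 h. S phase genes had 7 rises and 0 falls in limma at 12 h against 0 h (12 and 3 at an unadjusted p below 0.05, median 0.10), then 17 falls between 12 h and 24 h (median -0.32). The glycolysis and hypoxia list had 12 rises and 5 falls at 12 h (median 0.08), then 1 rise and 19 falls (median -0.42). Tubulins had 6 rises and 2 falls, then 0 rises and 12 falls (median -0.43).

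In the p53 list, 14 genes had risen by 12 h (median 0.23), and 5 rose and 2 fell from 12 h to 24 h (median 0.02). The integrated stress response list had 1 rise and 3 falls at 12 h (median 0.00) and 12 rises and 1 fall afterwards (median 0.28). Wnt targets had 3 falls at 12 h (median 0.06, with 8 of 12 positive) and 1 afterwards (median -0.20, with 11 of 12 negative). Cholesterol genes had 8 rises at 12 h and 15 falls afterwards, and the germline list 9 rises (median 0.43) and then 7 falls (median -0.49). Some of the largest falls after 12 h were in genes with a peak at 12 h. Tuba3b, a testis alpha tubulin that is near-identical to Tuba3a, was at 75.7 and 86.6, then 327 and 355, then 66.2 and 81.2, and Hal, a histidine-degrading enzyme, at 164 and 105, then 240.4 and 303, then 89.7 and 76.9. For both genes the 0 h and 24 h libraries were each below both 12 h libraries.

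**Figure D4:**
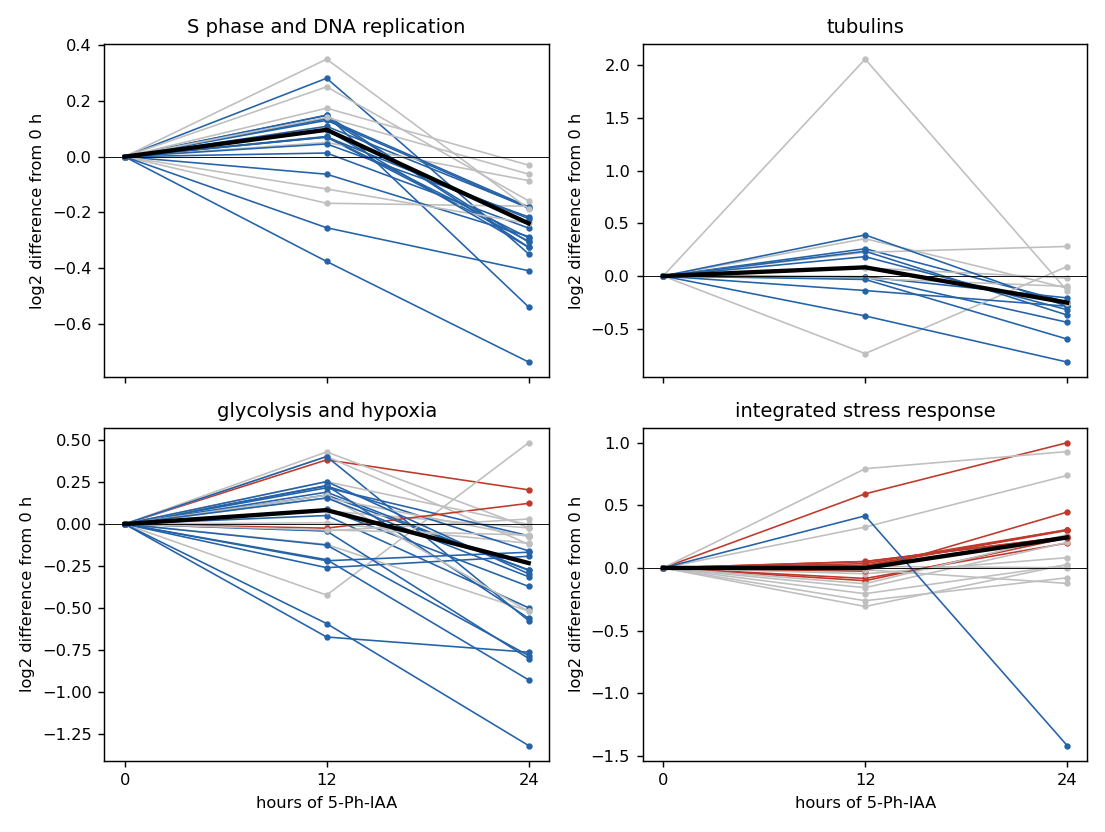
Log2 difference from the 0 h mean (y axis, log2(normalised count + 1) scale) against hours of 5-Ph-IAA (x axis) for the members of 4 lists, 1 thin line a gene and the median as a thick black line. Blue and red lines are genes called lower and higher at 24 h against 0 h, grey lines those not called, and the medians of the S phase, tubulin, and glycolysis and hypoxia lists are above 0 at 12 h and below it at 24 h.

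CTCF AID cells, a separate line given IAA at 500 uM, were listed in another table that was normalised separately, so levels and differences are set side by side only. Over 13016 genes tested in both, the 24 h against 0 h differences had the same sign for 52.6%, with r = 0.10 across genes, which are not independent replicates. For the 128 genes called at least 2-fold in RAD21 AID cells and tested in both, the sign was the same for 63.3% and r was 0.32 (Spearman's rho 0.31). Of 76 genes that fell at least 2-fold, 32 (42.1%) were at least 2-fold lower in CTCF AID cells, where 716 of all 13016 genes (5.50%) were; those 32 are 4.47% of the 716. Of 52 that rose at least 2-fold, 4 (7.69%) were at least 2-fold higher there, where 316 of all 13016 genes (2.43%) were. Another 7 of the 52 (13.5%) were at least 2-fold lower there, beside 5.50% of all genes. The median difference in CTCF AID cells was -0.69 for the 76 and 0.18 for the 52. The shares over all genes were not matched for level, and the differences in CTCF AID cells were not tested. In RAD21 AID cells the median level was 65.9 for all genes that fell at least 2-fold and 77.6 for those that rose. It was 416 over all genes tested. Sp5, Ptpru and Ier3 had differences of opposite sign in the 2 lines.

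**Figure D5:**
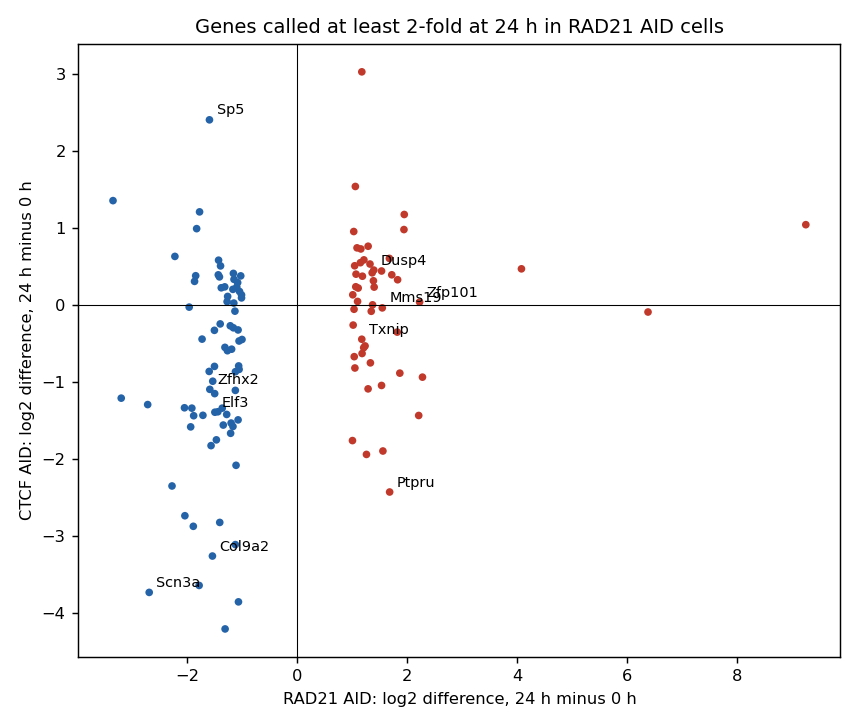
Log2 difference between 24 h and 0 h in RAD21 AID cells (x axis) and in CTCF AID cells (y axis) for the 128 genes called at least 2-fold in RAD21 AID cells, 52 higher in red and 76 lower in blue. Most blue points lie below 0 on the y axis, red points lie on both sides of it, and Sp5 and Ptpru are far out on the opposite sides.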

How the data were processed

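RNA sequencing libraries of mouse E14 cells were compared through the normalised counts the authors deposited, a signal that is never negative. Per the submitters' processing notes, Trim Galore, Bowtie2, STAR, RSEM, DESeq2 and mm10 were named without a role; the normalisation, annotation and strand use are not given in the sources used here. Whole reads could not be recovered: 53.6% to 61.6% of values under 15 in a library lay within 0.1 of a whole multiple of a step. No count test was run, and depth is not known. The 6 RAD21 AID libraries entered 1 model (limma 3.58.1, R 4.3.3) of log2-transformed values with a pseudocount of 1, for genes averaging 10 or more (eBayes with a mean trend, Benjamini-Hochberg adjustment over 13738 genes, threshold 0.05), after the code was tested on simulated data. Fold changes on this scale understate changes of low genes. Positions are from GENCODE M21 (GRCm38), and 9 genes did not join. Named were up to 12 called genes per direction with the largest differences (averaging 100 or more in one group, libraries not overlapping, no provisional symbol), 6 per direction with the smallest p (averaging 1000 or more), 4 per direction between 24 h and 12 h, Rad21 and list members. The members and lists were chosen with earlier results of these data known. Alternatives were pseudocounts of 0.5 and 10, other filters, scalings and variance models, the 4 libraries alone, a replicate block and leaving out each library. Samples were treated as unpaired, since libraries of the same replicate number showed no shared deviation. Some results are not reported here.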

Additional observations from a re-analysis of the deposited data

Results flagged for a closer look

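Of the genes named for the size or the p of their change, 3 differed by at least 0.5 (log2) one way in RAD21 AID cells and by at least 0.5 the other way in CTCF AID cells between 0 h and 24 h, with no overlap of libraries in either. Without that minimum, opposite signs were common: the sign was the same for 63.3% of the 128 genes called at least 2-fold. The difference between the lines was not tested, the tables were normalised separately, and the agents differ. Ptpru had a log2 difference of 1.68 in RAD21 AID cells and -2.43 in CTCF AID cells, where it went from 47.7 and 119 to 12.3 and 14.1. Sp5 had -1.60 in RAD21 AID cells and 2.41 in CTCF AID cells, where it went from 226 and 182 to 1050.0 and 1109. Ier3 had -1.43 in RAD21 AID cells and 0.58 in CTCF AID cells, where it went from 38.6 and 52.1 to 57.0 and 80.1.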

How the results depend on the processing

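With 2 libraries a group, the calls depend most on how the variance is modelled. Without a mean trend, 216 genes were called between 24 h and 0 h, 96 higher and 120 lower and 51 at least 2-fold, beside 463 between 24 h and 12 h and 158 between 12 h and 0 h; the cause was not tested. With a mean of at least 100, 54 genes were called at least 2-fold, since fewer genes were tested. Leaving out 1 library at a time gave 687 to 1367 calls between 24 h and 0 h, 301 to 637 higher, 386 to 730 lower and 74 to 114 at least 2-fold, 892 to 1919 between 24 h and 12 h and 554 to 1499 between 12 h and 0 h, with fewer samples in each fit. A replicate block gave 1492, 697, 795 and 121 for these 24 h against 0 h counts. It gave 1865 between 24 h and 12 h and 1374 between 12 h and 0 h. Replicate deviations correlated by -0.03 to 0.01 between groups. Same-numbered libraries thus showed no shared deviation, but whether they were prepared together cannot be told from this. Of 172 called genes named by the rule, 39 were called without the mean trend, 101 to 144 with 1 library left out and 154 with the block, and 0 changed sign under any setting run. Low values limit what can be called in weakly expressed genes.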

Other observations

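Other gene groups were also compared between 24 h and 0 h, where 6.54% of all genes tested were called higher and 7.16% lower. Among genes of any kind with a mean above 1000, 27.4% were called. Of 22 imprinted genes, 5 rose and 4 fell, with falls numbering 1 or 2 and rises 3 to 5 without either 0 h or either 24 h library. Igf2r, a scavenger receptor for IGF2, rose from 3955 and 3949 to 5557 and 5501 (log2 0.48), and Mest, an imprinted hydrolase, stood at 1282 and 1284, then 2340.0 and 2385 at 12 h, then 1719 and 1801 (log2 0.46). Peg10, a retrotransposon-derived gene, and the zinc finger gene Plagl1 fell (log2 -1.06 and -0.76). Of 13 interferon response genes 3 rose, among them the RNA sensor Ddx58 (log2 0.89) and the tetherin gene Bst2 (0.65), and Oas1a fell (-0.62), with 0 or 1 rise called when any 1 library was left out. Of 342 numbered Zfp genes 6 rose and 22 fell, with a median of -0.07 and 4 to 13 falls when 1 library was left out, while 5 rose and 62 fell between 0 h and 12 h and 40 rose and 9 fell between 12 h and 24 h. Of 82 cytosolic ribosomal protein genes 16 rose and 6 fell, with 4 to 11 rises and 1 to 5 falls when 1 library was left out, and Rpl39l, Rps4l and Rpl10l, copies that resemble broadly expressed members, had the largest falls (-0.38, -0.35 and -0.29). Of 80 genes of the mitochondrial respiratory chain encoded in the nucleus 0 rose and 10 fell in limma (2 and 23 at an unadjusted p below 0.05), with a median of -0.07 and 1 to 6 falls when 1 library was left out, the fewest without the second 0 h or second 24 h library.

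Actin genes and YAP targets had 3 falls and 0 rises in limma among 14 (4 and 0 at an unadjusted p below 0.05), MHC class I genes 1 fall among 10 (0 without either 0 h or either 24 h library), and targets of the aryl hydrocarbon receptor 1 fall among 6, Tiparp (log2 -0.41), with 0 calls when any 1 library was left out. Of 5 histone genes listed under the searched names, H1f0 fell (-0.49) and H3f3b rose (0.14), with 0 calls without the first 0 h library. The germline list of 21 had 1 fall, Tuba3a (-0.37). In limma 0 members were called of 22 Hox genes (median 0.08), 14 clustered protocadherins (-0.01), 11 genes of the 2-cell-like state (-0.42) and 13 BMP and Nodal targets (-0.29). At an unadjusted p below 0.05 these lists had 1, 1, 1 and 2 genes, and the median of the 2-cell-like list was -0.16 without the second 0 h and -0.11 without the second 24 h library.

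Some runs of 3 or more adjacent called genes, picked here after their values were seen, moved one way. On chromosome 13, Bhmt, Bhmt2 and Dmgdh, enzymes of betaine and dimethylglycine breakdown, fell by 0.88, 0.89 and 0.53 on the log2 scale. On chromosome 5, Oas1g, Oas1a and Oas1d, oligoadenylate synthetase genes similar in sequence, fell by 0.47, 0.62 and 1.35. On chromosome 15, the amino acid carriers Slc38a1, Slc38a2 and Slc38a4 rose (log2 0.25, 0.22 and 0.35), and on chromosome 11 so did Stat5a, Stat3 and Cavin1 (0.83, 0.28 and 0.51).

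Called genes that were listed at 0 in both 0 h libraries, also picked after their values were seen, include the processed pseudogene Gm13841, at 677 and 342 at 12 h and at 1343 and 276 at 24 h, and Commd1b, at 112 and 60.3 at 24 h. No fold is given against a group at 0.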
